A study of Mus musculus with 9 samples.

Results

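In mouse eyes at day 7 after laser injury, 7 of 200 listed tRNA fragments (3.5%) were called higher than in untreated eyes. They were 5' fragments of glycine tRNAs of 32 or 33 nt that stop at the edge of the anticodon. Their sequences are near copies of each other. They are 7 of 11 listed glycine fragments with such an end, a group formed after the values had been seen. The comparison used 6 of the 9 libraries of the series, all 3 untreated controls and all 3 taken at day 7, and all 200 listed tRNA fragments. Each library was small RNA from a complex of retinal pigment epithelium (the pigmented layer behind the retina), choroid (the vessel layer beneath it) and sclera of C57BL/6 mice. The treated eyes received 532 nm laser burns of 110 mW for 100 ms at an age of 6 to 8 weeks, under avertin anaesthesia with tropicamide to widen the pupil. Burns that break Bruch's membrane, the sheet between pigment epithelium and choroid, make vessels grow out of the choroid, and this is a standard model of choroidal neovascularization. The controls were mice without treatment, and the labels give no age for them. The labels do not say whether a complex is 1 eye, 1 mouse or a pool, and the p-values below reflect the scatter among libraries, part or all of which may be technical. The table holds tRNA fragments alone, so the tissue could not be checked against marker genes, and in whole tissue fewer cells of a type cannot be told apart from less RNA per cell.

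Transfer RNAs carry amino acids to the ribosome and are named by amino acid and anticodon. They are cut into stable pieces. Cleavage in the anticodon loop gives long 5' and 3' pieces called tiRNAs, and angiogenin, a secreted ribonuclease known also for promoting vessel growth, makes such cuts in stressed cells. Shorter pieces are called tRFs, with tRF-5 from the 5' end, tRF-3 from the mature 3' end and tRF-1 from the 3' trailer of the precursor. A fragment name gives class, first and last base and parent, so tiRNA-1:33-Gly-CCC-2 runs from base 1 to base 33 of a glycine tRNA with anticodon CCC, and M3 after a parent marks a sequence that 3 tRNA genes share in the deposited alignments. In the deposited table the 32 nt glycine fragments are classed as tRF-5c and the 33 nt ones as tiRNA-5, although they differ by a single base at the 3' end.

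The 8 fragments that passed the threshold are printed here 5' to 3' with capitals for the base before the anticodon and what follows it, because the position of that last base recurs in the results.
tRF-1:32-Gly-GCC-2-M3: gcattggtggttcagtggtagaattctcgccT
tiRNA-1:33-Gly-GCC-2-M3: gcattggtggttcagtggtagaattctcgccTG
tRF-1:32-Gly-GCC-1: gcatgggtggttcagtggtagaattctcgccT
tiRNA-1:33-Gly-GCC-1: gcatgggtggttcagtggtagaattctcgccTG
tRF-1:32-Gly-CCC-2: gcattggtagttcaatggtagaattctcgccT
tiRNA-1:33-Gly-CCC-2: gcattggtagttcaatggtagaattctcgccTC
tiRNA-1:33-Gly-CCC-3-M2: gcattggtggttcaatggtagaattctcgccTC
tiRNA-1:34-Asp-GTC-2: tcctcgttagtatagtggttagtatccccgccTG

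Counted from base 1 at the 5' end, tiRNA-1:33-Gly-GCC-2-M3 and tiRNA-1:33-Gly-GCC-1 differed by T5G alone. Against tiRNA-1:33-Gly-GCC-2-M3, tiRNA-1:33-Gly-CCC-3-M2 carried G15A and G33C, and tiRNA-1:33-Gly-CCC-2 carried G9A, G15A and G33C. The glycine fragments are therefore near copies of each other, and the assignment of reads among them is uncertain. Full mature tRNAs from the deposited alignments, with the anticodon in capitals, place the ends of these fragments.
tRNA-Gly-GCC-2-1: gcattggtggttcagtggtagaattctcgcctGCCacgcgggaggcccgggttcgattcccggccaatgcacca
tRNA-Gly-CCC-2-1: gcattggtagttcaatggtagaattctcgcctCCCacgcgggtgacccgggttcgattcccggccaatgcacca
tRNA-Asp-GTC-2-1: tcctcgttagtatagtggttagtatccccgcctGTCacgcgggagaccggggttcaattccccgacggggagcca
The anticodon lies at bases 33 to 35 in these glycine tRNAs and at 34 to 36 in the aspartate tRNA. A 32 nt glycine fragment thus stops at the base before the anticodon, and a 33 nt one at the first anticodon base. RefSeq lists 14 Gly-GCC and 6 Gly-CCC tRNA genes for mouse (GRCm38.p6), on several chromosomes, and the fragments were not placed at a single gene here.

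Mapped reads ran from 1204173 to 2155977 in the 6 libraries, and the listed fragments held 75.3% to 78.6% of them. Correlations of log2 CPM (reads per 1 M mapped, plus 0.5) were 0.930 to 0.965 within the groups and 0.913 to 0.969 between control and day 7, so the groups did not separate by this measure. The day 7 libraries were unlike each other: the most abundant fragment, tRF-1:31-Gly-GCC-2-M3, held 47.8% of listed counts in replicate 1, 64.2% in replicate 2 and 59.3% in replicate 3, against 63.7% to 66.5% in the controls. TMM (trimmed mean of M values) scaling factors were 1.14, 0.782 and 0.749 in day 7 replicates 1, 2 and 3 and 0.962 to 1.13 in the controls.

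Of the 200 fragments, 8 passed an adjusted p of 0.05 in edgeR's quasi-likelihood test with Benjamini-Hochberg adjustment, which is 4% of those tested. There were 7 higher at day 7 (3.5%) and 1 lower (0.5%), and 38 (19%) had an unadjusted p under 0.05, 25 of them higher (12.5%) and 13 lower (6.5%). The 7 higher were all 5' fragments of Gly-GCC or Gly-CCC tRNAs of 32 or 33 nt, and the 1 lower was a 5' tiRNA of an aspartate tRNA. In CPM, 18 fragments (9%) were higher in every day 7 library than in every control and 24 (12%) were lower. The median log2 fold change of all 200 fragments was 0.09 with TMM factors, -0.17 with mapped totals alone and -0.19 when scaled to the listed counts, a shift of this median by 0.26 or 0.28, and single fragments moved by more or less than that. Without TMM factors the calls were 7 higher and 7 lower, scaled to the listed counts 7 higher and 8 lower, and with TMM factors computed without Gly-GCC fragments 6 higher and 3 lower. The first 2 of these settings kept all 8 calls, and the third lost tRF-1:32-Gly-GCC-2-M3. All fold changes below use TMM factors, while CPM values are as deposited.

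The Gly-GCC-2-M3 parent gave most reads of every library. Its 32 nt fragment, tRF-1:32-Gly-GCC-2-M3, stood at 101896, 81397 and 88594 CPM in control replicates 1 to 3 and at 260060, 131503 and 155990 CPM at day 7. The log2 fold change was 1.22 ± 0.28 (SE; adjusted p = 0.00829, edgeR), and all day 7 libraries lay above all controls, replicate 1 farthest. With TMM factors computed without Gly-GCC fragments the fold change was 0.95 and did not pass (adjusted p = 0.0700). Its 33 nt neighbour, tiRNA-1:33-Gly-GCC-2-M3, was at 10616, 15352 and 14080 CPM in the controls and 38312, 29813 and 27373 CPM at day 7, a log2 fold change of 1.53 ± 0.32 (adjusted p = 0.00428, edgeR). Here the day 7 libraries were close to each other and again all above the controls.

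The shorter Gly-GCC-2-M3 fragments did not rise with them. The 31 nt fragment, the most abundant of all, was at 491419 ± 10659 CPM in the controls and 440861 ± 74030 CPM at day 7 (SD, n = 3), with a log2 fold change of 0.17 ± 0.27 whose sign turns without TMM factors. The 30 nt fragment was at 86527, 113986 and 105351 CPM in the controls and 29061, 65080 and 66766 CPM at day 7, every day 7 library below every control. Its log2 fold change of -0.54 ± 0.39 did not pass with TMM factors (adjusted p = 0.462, edgeR) and passed at -0.93 (adjusted p = 0.0484) with mapped totals alone and at -0.96 (adjusted p = 0.0269) when scaled to the listed counts. The 28 and 29 nt fragments had log2 fold changes of -0.20 and -0.19.

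Summed over its 9 listed lengths, the Gly-GCC-2-M3 5' side held 703181 ± 2537 CPM in the controls and 712940 ± 21905 CPM at day 7 (SD, n = 3). In CPM the sum was nearly equal in both groups while the lengths within it differed, and with TMM factors its log2 fold change was 0.48 ± 0.20 (adjusted p = 0.142 over 95 sums, edgeR).

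Gly-GCC-1, whose fragments differ from those of Gly-GCC-2-M3 by the base given above, showed the same order at a lower level. Its 32 nt fragment was at 1512, 1452 and 1468 CPM in the controls and 6041, 2240 and 4156 CPM at day 7, and its log2 fold change was 1.71 ± 0.37 (adjusted p = 0.00582, edgeR). The controls were tightly placed and the day 7 libraries wide apart. Its 33 nt fragment was at 110, 133 and 147 CPM in the controls and 497, 260 and 390 CPM at day 7, with a log2 fold change of 1.81 ± 0.37 (adjusted p = 0.00383, edgeR). The 31 nt fragment went from 13643 ± 1144 to 17772 ± 2329 CPM (SD, n = 3), a log2 fold change of 0.70 ± 0.34 that did not pass (adjusted p = 0.260, edgeR). In CPM it was nonetheless higher in every day 7 library than in every control. The 28, 29 and 30 nt fragments were within 0.14 of 0 on the log2 scale. Summed over its 6 listed lengths, the Gly-GCC-1 5' side went from 18464 ± 1289 to 24880 ± 2538 CPM (SD, n = 3), without overlap. The log2 fold change of this sum was 0.89 ± 0.28 (adjusted p = 0.0557, edgeR).

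The Gly-CCC fragments had the largest fold changes among the 8. tiRNA-1:33-Gly-CCC-2 was at 45.8, 48.0 and 54.7 CPM in the controls and 331, 132 and 197 CPM at day 7, a log2 fold change of 2.36 ± 0.43 (adjusted p = 0.00223, edgeR). tRF-1:32-Gly-CCC-2 was at 91.5, 66.9 and 74.2 CPM in the controls and 399, 189 and 275 CPM at day 7, a log2 fold change of 2.11 ± 0.40 (adjusted p = 0.00239, edgeR). In both, replicate 1 was the highest day 7 library and replicate 2, the lowest, still stood above every control.

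Of the shorter Gly-CCC-2 fragments, the 31 nt one had a log2 fold change of 0.73 ± 0.40 and the 30 nt one of -0.03 ± 0.56. In CPM the 31 nt one was higher in every day 7 library than in every control. tiRNA-1:33-Gly-CCC-3-M2 was at 35.1, 34.3 and 29.7 CPM in the controls and 151, 80.9 and 95.2 CPM at day 7, a log2 fold change of 1.95 ± 0.35 (adjusted p = 0.00223, edgeR). The 32, 31 and 30 nt fragments of Gly-CCC-3-M2 had log2 fold changes of 0.95 ± 0.35, 0.00 ± 0.36 and -0.64 ± 0.44, none past the threshold. In each of these 4 glycine parents the log2 fold change was larger at 33 nt than at 32 nt, larger at 32 nt than at 31 nt and larger at 31 nt than at 30 nt.

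**Figure D1:**
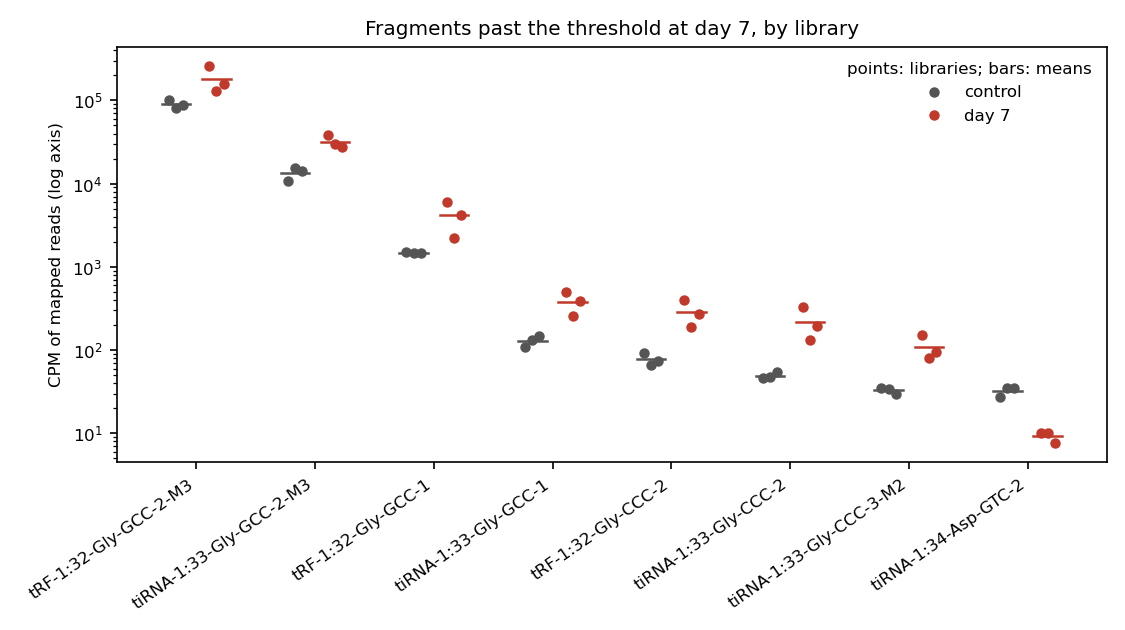
CPM of mapped reads on a log axis for the 8 fragments past the threshold, with points for the 3 control and 3 day 7 libraries and bars for the group means. In the 7 glycine fragments every day 7 point lies above every control point, and in tiRNA-1:34-Asp-GTC-2 every day 7 point lies below.

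**Figure D2:**
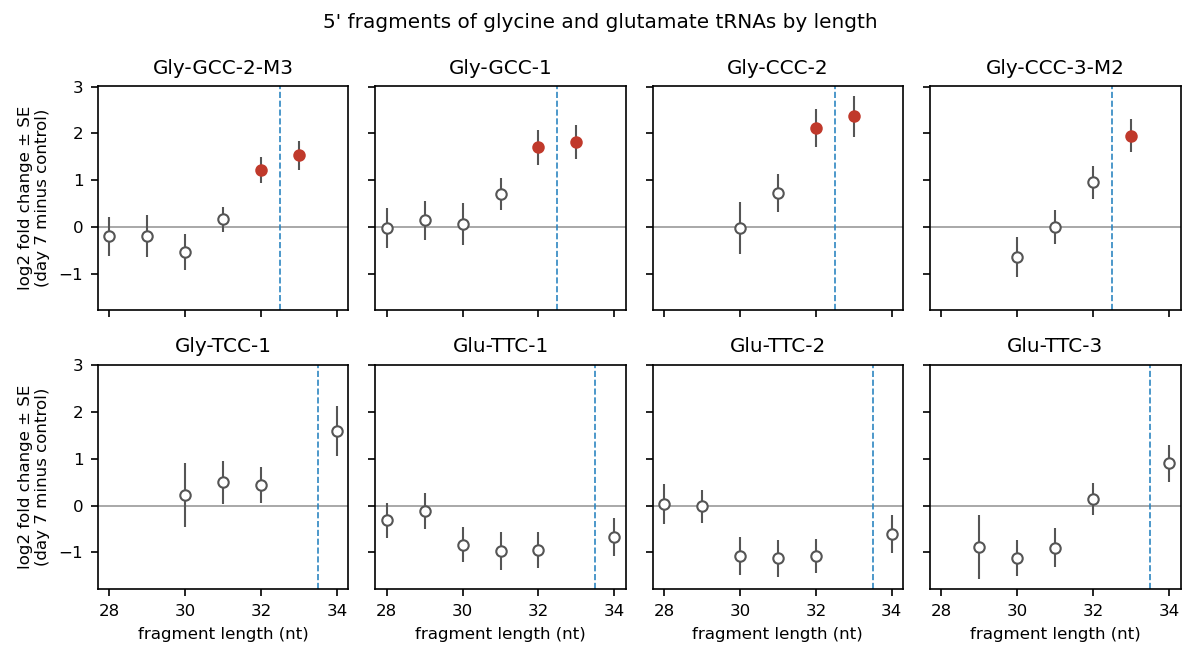
Log2 fold change (day 7 minus control, with SE) of 5' fragments of 8 glycine and glutamate parents against fragment length in nt; filled points passed an adjusted p of 0.05 and the dashed line marks the edge of the anticodon. The filled points lie at 32 and 33 nt of 4 glycine parents, while all lengths of Glu-TTC-1 from 30 nt on lie below 0.

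These calls rested on single libraries to different degrees. The 3 Gly-CCC fragments passed in every alternative that tested them. The Gly-GCC calls were lost more easily: without control replicate 2 none of the 4 passed (adjusted p from 0.0612 to 0.211, edgeR), and without control replicate 3 the 32 nt fragments of both parents did not. Without day 7 replicate 1, the library farthest from the others, all 7 glycine fragments passed.

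The 1 fragment that fell was tiRNA-1:34-Asp-GTC-2, a 5' tiRNA of an aspartate tRNA. It was at 26.97, 34.9 and 35.3 CPM in the controls and 9.97, 10.05 and 7.59 CPM at day 7, and its log2 fold change was -1.52 ± 0.37 (adjusted p = 0.0119, edgeR). The groups were far apart, but the day 7 values rest on 12, 18 and 11 reads. The call did not hold without control replicate 2 or 3, without day 7 replicate 1, or with limma-voom, where the adjusted p was 0.0671 to 0.0873. The 34 nt fragment of the other listed aspartate parent, tiRNA-1:34-Asp-GTC-1-M2, was at 57.5 ± 26.8 CPM in the controls and 54.7 ± 7.76 CPM at day 7 (SD, n = 3), a log2 fold change of 0.21 ± 0.37.

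Most glutamate fragments had negative fold changes at day 7, though none passed the threshold and the summed Glu-TTC-3 fragments were higher. Of 21 nuclear glutamate fragments 17 had a log2 fold change below 0, with a median of -0.68, against 0.09 over all fragments, and the median stayed below 0 under all 5 scalings, from -1.09 to -0.68. In CPM 8 of the 21 were lower in every day 7 library than in every control, beside 12% of all fragments. The 21 are lengths of Glu-TTC-1, Glu-TTC-2, Glu-TTC-3 and Glu-CTC-2, so they are not independent. Summed over lengths, the 5' side had log2 fold changes of -0.51 for Glu-TTC-1, -0.48 for Glu-TTC-2 and -0.34 for Glu-CTC-2. For Glu-TTC-3 it was 0.83, from 1430 ± 434 CPM in the controls to 1929 ± 371 CPM at day 7 (SD, n = 3), with overlap. None of these sums passed in edgeR. The share of listed counts from glutamate fragments, which does not depend on scaling between libraries, was 1.17%, 1.15% and 1.04% in control replicates 1 to 3 and 0.893%, 0.587% and 0.722% at day 7. The groups did not overlap, and the two-sided exact permutation test gave p = 0.1, the smallest that 3 against 3 allows (0.233 after Benjamini-Hochberg adjustment over 7 such shares and lengths).

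The most abundant glutamate fragment, tiRNA-1:34-Glu-TTC-1, was at 3330, 3019 and 3097 CPM in the controls and 1774, 1314 and 1815 CPM at day 7, a log2 fold change of -0.67 ± 0.40 (adjusted p = 0.383, edgeR). All its day 7 libraries were below all controls. tRF-1:32-Glu-TTC-2, with the smallest adjusted p among those of Glu-TTC-2, was at 250, 230 and 221 CPM in the controls and 129, 80.4 and 74.5 CPM at day 7, a log2 fold change of -1.07 ± 0.37 (adjusted p = 0.111, edgeR). It passed with DESeq2, with mapped totals alone, with scaling to the listed counts and with TMM factors computed without Gly-GCC fragments, at -1.22 to -1.33. tRF-1:30-Glu-CTC-2 had a log2 fold change of -1.46 ± 0.50 and tRF-1:30-Glu-TTC-3 of -1.13 ± 0.38, both with an adjusted p of 0.111 (edgeR).

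The 34 nt fragments of glutamate tRNAs had fold changes of both signs, -0.60 for Glu-TTC-2, 0.17 for Glu-CTC-2 and 0.91 for Glu-TTC-3 on the log2 scale. The Glu-TTC-3 34 nt fragment, tiRNA-1:34-Glu-TTC-3, was at 1618, 988 and 700 CPM in the controls and 2254, 1548 and 1538 CPM at day 7, a log2 fold change of 0.91 ± 0.40 (adjusted p = 0.203, edgeR). Control replicate 1 overlapped the day 7 libraries, and without it the fragment passed at 1.40 (adjusted p = 0.0456, edgeR). Its 31 nt fragment went the other way, from 217, 260 and 246 CPM to 53.1, 114 and 131 CPM, a log2 fold change of -0.90 ± 0.42 (adjusted p = 0.246, edgeR).

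The fragments next in order, which missed the threshold, came from several parents. tRF-1:32-Thr-TGT-3, from a threonine tRNA, was at 4.90, 5.14 and 7.89 CPM in the controls and 14.9, 20.1 and 11.7 CPM at day 7, with no overlap but few reads (log2 fold change 1.66 ± 0.51, adjusted p = 0.0741, edgeR). tRF-1:30-Pro-AGG-1-M3, from a proline tRNA, was at 21.3, 29.7 and 30.1 CPM in the controls and 14.9, 7.81 and 6.90 CPM at day 7 (log2 fold change -1.23 ± 0.38, adjusted p = 0.0741, edgeR). It passed with DESeq2 and under all 4 other scalings.

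More glycine fragments were among them. tiRNA-1:34-Gly-TCC-1, which like the 33 nt glycine fragments above ends on the first anticodon base, was at 7.36, 7.43 and 5.57 CPM in the controls and 22.4, 11.7 and 17.2 CPM at day 7 (log2 fold change 1.59 ± 0.53, adjusted p = 0.111, edgeR). tRF-1:32-Gly-CCC-1 was at 155, 93.1 and 93.2 CPM in the controls and 241, 148 and 240 CPM at day 7 (log2 fold change 1.13 ± 0.39, adjusted p = 0.111, edgeR), while its 33 nt neighbour had 0.09 ± 0.40. Day 7 replicate 2 of the 32 nt fragment lay below control replicate 1. tRF-1:32-His-GTG-2, from a histidine tRNA, was higher in every day 7 library, with 147 ± 40.6 CPM in the controls and 257 ± 54.1 CPM at day 7 (SD, n = 3; log2 fold change 1.04 ± 0.37, adjusted p = 0.114, edgeR).

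The end of a fragment relative to the anticodon was examined after the values above had been seen, so it is a description with no test. The anticodon could be placed in 133 of 134 nuclear fragments that start at the 5' end. Of 9 fragments that end on the base before the anticodon, 9 had a log2 fold change above 0, 3 of them called higher, with a median of 0.95. That median is the value of a glycine fragment, tRF-1:32-Gly-CCC-3-M2. Those from parents other than glycine were lower, at 0.94 for Cys-GCA-1-M3, 0.46 for Pro-AGG-1-M3, 0.42 for Pro-TGG-1 and 0.38 for Ala-CGC-2. Of 24 that end on the first anticodon base, 18 were above 0, with 4 called higher and 1 lower and a median of 0.25. Of 19 that end 2 bases earlier than the base before the anticodon, 14 were below 0 and 0 were called, with a median of -0.57. Over 5 scalings these medians ranged from 0.69 to 0.95, from -0.04 to 0.25 and from -0.96 to -0.57 in that order, so the sign at the first anticodon base depended on the scaling. Of all 200 fragments, 114 were above 0 and 3.5% were called higher. All of the higher calls were glycine. Of 22 fragments of other parents that end at the base before the anticodon or later, 16 were above 0, with a median of 0.25. Among these 22, 0 were called higher and 1 lower, and the median ranged from -0.04 to 0.25 over 5 scalings.

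**Figure D3:**
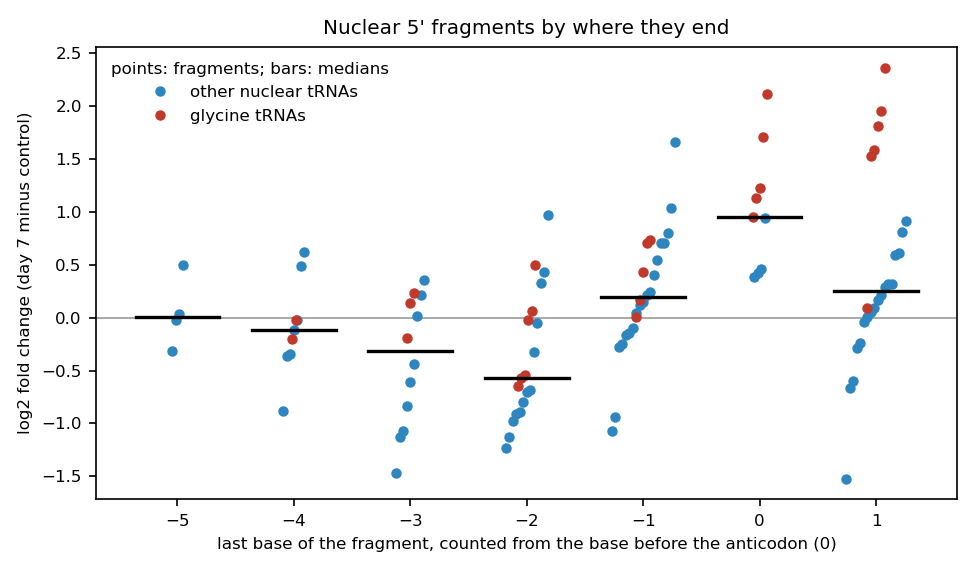
Log2 fold change (day 7 minus control) of nuclear 5' fragments against the position of their last base, with 0 for the base before the anticodon and 1 for the first anticodon base; points are fragments, coloured for glycine or other parents, and bars are medians. The median over glycine and other parents together is lowest 2 bases short of that base, at -0.57, and highest at 0, at 0.95. The called glycine fragments lie at 0 and 1.

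A share within each parent needs no scaling between libraries. For 18 parents with ends on both sides, the counts of 5' fragments of 28 nt or more that reach the base before the anticodon were taken as a share of all such counts. Every day 7 library was above every control in 9 of the 18 parents (50%) and below in 1 (5.56%), and the mean was higher in 14. All 6 glycine parents were among the 9. The other 3 were Glu-TTC-3, Pro-AGG-1-M3 and Ala-CGC-2, out of 12 parents other than glycine. In those 12 the mean was higher in 8 and lower in 4. In Gly-GCC-2-M3, Gly-GCC-1, Gly-CCC-2 and Gly-CCC-3-M2 the called fragments are part of the counts that reach this base. The assignment of reads among these parents is uncertain, and the cut was chosen after the values had been seen. For these parents the share is therefore not a separate result. Some of the 9 parents were separated only narrowly. The lowest day 7 library and the highest control were at 23.9% and 23.5% in Ala-CGC-2. They were at 95.4% and 94.1% in Gly-CCC-1 and at 10.6% and 9.17% in Gly-GCC-1.

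In Gly-CCC-2 the share was 25.5%, 19.6% and 21.96% in the controls and 64.6%, 38.6% and 45.6% at day 7. In Gly-GCC-2-M3, which has far more reads, it was 15.9%, 13.8% and 14.6% in the controls and 43.2%, 21.9% and 25.7% at day 7. Day 7 replicate 1 was the highest in both, and replicates 2 and 3 were also above all controls. In Gly-TCC-1 the share was 14.1% ± 4.31 in the controls and 25.4% ± 2.62 at day 7, and in Glu-TTC-3 it was 75.2% ± 9.18 and 91.8% ± 3.33 (SD, n = 3). Glu-TTC-1 did not share this, with 76.2% ± 5.16 and 76.6% ± 7.94. Lys-CTT-2, the 1 parent with all day 7 libraries below, had 98.5% ± 0.0238 and 97.0% ± 0.788.

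**Figure D4:**
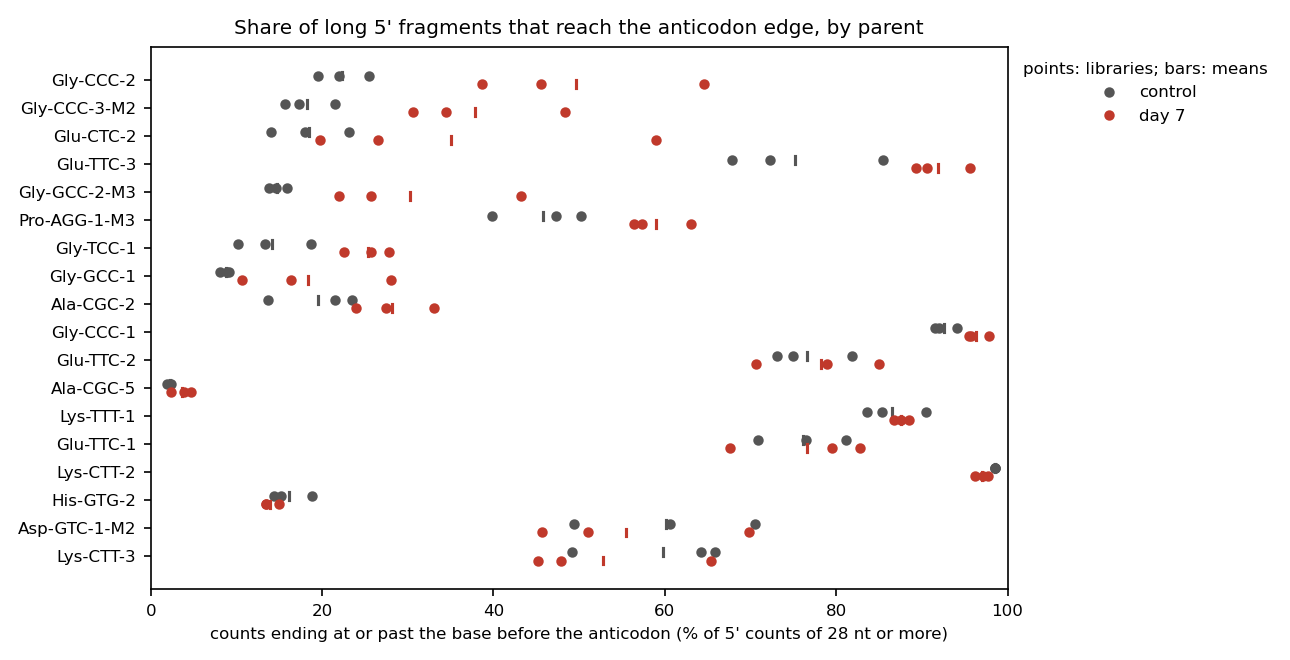
Share (%) of 5' counts of 28 nt or more that end at or past the base before the anticodon, for 18 parents, with points for libraries and bars for group means. The day 7 points lie right of all control points in 9 parents, among them all 6 glycine parents, and left of them in Lys-CTT-2.

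The count-weighted mean length of Gly-GCC 5' fragments of 28 nt or more was 31.04, 30.97 and 30.99 nt in the controls and 31.42, 31.15 and 31.18 nt at day 7. The groups did not overlap, and the difference of 0.254 nt gave p = 0.1 in the two-sided exact permutation test (0.233 adjusted over 7). Averaged over 10 nuclear parents other than glycine, the mean length was 32.02 nt ± 0.0413 in the controls and 32.15 nt ± 0.0522 at day 7 (SD, n = 3), also without overlap and with the same exact p of 0.1. Among these parents Glu-CTC-2, at 0.59 nt, and Glu-TTC-3, at 0.53 nt, differed most, and no other rose by more than 0.17 nt. Lys-CTT-3, Glu-TTC-1 and Glu-TTC-2 went the other way, at -0.13, -0.05 and -0.03 nt. In Glu-CTC-2 day 7 replicate 1 stood at 32.87 nt, and replicates 2 and 3 at 31.80 and 31.68 nt.

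Lists by length hold the same fragments and calls, so their similar order is not a separate result. Of all 200 fragments, 3.5% were called higher and 114 were above 0. The 37 fragments of 32 and 33 nt held all 7 of the higher calls, 30 of them were above 0, and their median log2 fold change was 0.46. The 38 fragments of 30 and 31 nt held 0 calls, 24 were below 0 and the median was -0.42. Both medians kept their sign under 5 scalings, from 0.20 to 0.46 and from -0.69 to -0.42. As a list, the 16 Gly-GCC fragments (4 called higher) had a median of 0.15 and the 14 Gly-CCC fragments (3 called higher) one of 0.05, and both turned negative without TMM factors. The calls thus came from the longest fragments of these parents, not from all of their lengths. The uncalled 31 nt fragments of Gly-GCC-1 and Gly-CCC-2 were also higher in CPM without overlap.

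**Figure D5:**
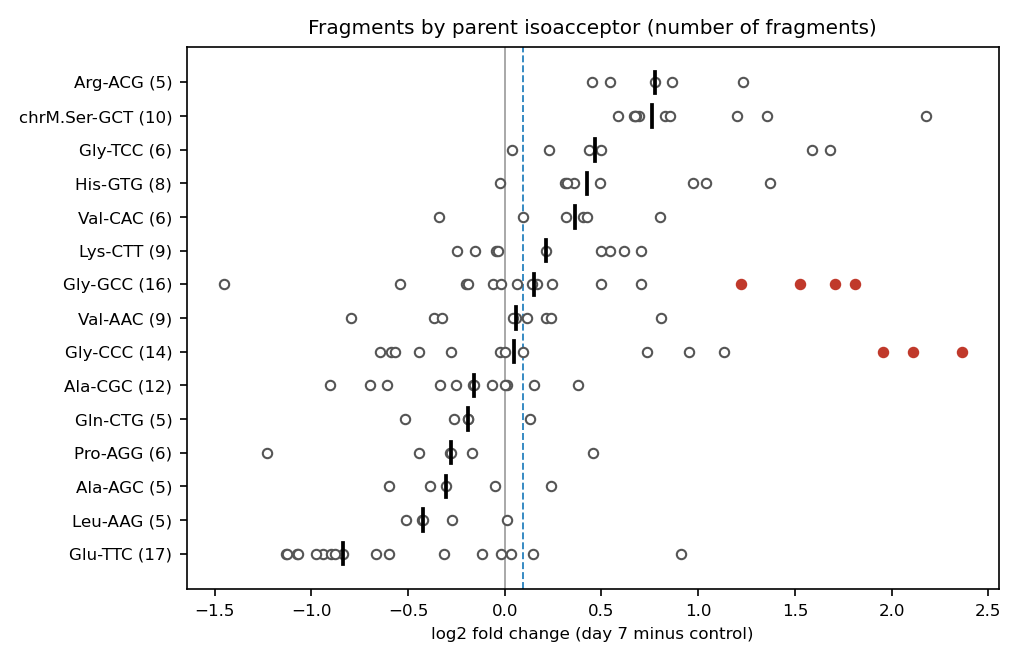
Log2 fold change (day 7 minus control) of fragments grouped by parent isoacceptor, for the 15 isoacceptors with at least 5 listed fragments; points are fragments, filled where the adjusted p was under 0.05, bars are medians and the dashed line is the median of all fragments, 0.09. Glu-TTC has the lowest median, -0.83, and Arg-ACG the highest, 0.78, and the filled points lie in Gly-GCC and Gly-CCC.

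Fragments of the precursor trailers had fold changes of both signs and most of those of mitochondrial tRNAs were above 0, without a call. Of 16 tRF-1 fragments 10 were above 0, with a median of 0.50. The trailer fragment with the smallest p, tRF-+1:T16-iMet-CAT-1 of the initiator methionine tRNA, which starts translation, was at 147, 111 and 88.6 CPM in the controls and 339, 220 and 114 CPM at day 7 (log2 fold change 1.14 ± 0.40, adjusted p = 0.114, edgeR). Day 7 replicate 3 overlapped the controls. The 4 trailer fragments of Thr-CGT-1, a threonine tRNA with the most trailer reads in the controls, were all below 0, from -0.77 to -0.20, and 0 passed. Their sum was at 381, 197 and 173 CPM in the controls and 226, 141 and 91.7 CPM at day 7, with overlap (log2 fold change of the sum -0.35 ± 0.38, adjusted p = 0.717, edgeR). All 5 trailer fragments of Arg-ACG, an arginine tRNA, were above 0, with a median of 0.78 that ranged from 0.55 to 0.78 over 5 scalings. The share of listed counts from tRF-1 was 0.0979% ± 0.0353 in the controls and 0.114% ± 0.0539 at day 7 (SD, n = 3; two-sided exact permutation p = 0.7).

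Of 17 mitochondrial fragments 15 were above 0, with a median log2 fold change of 0.68 that ranged from 0.40 to 0.68 over 5 scalings. The 10 fragments of chrM.Ser-GCT, a serine tRNA encoded by mt-Ts2 on chromosome M from 11613 to 11671 (GRCm38, plus strand), were all above 0, with a median of 0.76. The most abundant, tRF-1:22-chrM.Ser-GCT, was at 1583, 718 and 912 CPM in the controls and 1493, 1035 and 2244 CPM at day 7, so the groups overlapped (log2 fold change 0.85 ± 0.44, adjusted p = 0.291, edgeR). The largest fold change of all mitochondrial fragments, 2.18 ± 0.77 for tRF-1:29-chrM.Ser-GCT, came from day 7 values of 10.8, 1.12 and 27.6 CPM, which spanned the control range. The mitochondrial share of listed counts was 0.250% ± 0.0753 in the controls and 0.350% ± 0.138 at day 7 (SD, n = 3; two-sided exact permutation p = 0.4).

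At the 3' side none of the 37 fragments passed, 23 were below 0 and the median was -0.14, which stayed negative under 5 scalings. The lowest was tRF-53:74-Gly-GCC-4, at 11.4, 44.6 and 32.9 CPM in the controls and 9.97, 13.4 and 2.76 CPM at day 7 (log2 fold change -1.45 ± 0.56, adjusted p = 0.139, edgeR). The 3' share of listed counts was 0.260% ± 0.0326 and 0.218% ± 0.0695 (SD, n = 3; two-sided exact permutation p = 0.4). Short 5' fragments, tRF-5a and tRF-5b, held 0.473% ± 0.0186 and 0.518% ± 0.157 (p = 0.7 by the same exact test).

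Neighbouring lengths of a tRNA are not independent, so counts were also summed per parent and side. Of 95 such sums 0 (0%) passed in edgeR, 19 (20%) had an unadjusted p under 0.05, and DESeq2 called 1, Asp-GTC-2. The smallest adjusted p was 0.0526, shared by 3 sums. The Gly-CCC-2 5' side was at 539, 587 and 587 CPM in the controls and 1131, 831 and 1034 CPM at day 7, without overlap (log2 fold change 1.25 ± 0.36). The initiator methionine trailer was at 227 ± 73.8 CPM in the controls and 422 ± 207 CPM at day 7 (SD, n = 3; log2 fold change 1.28 ± 0.38), and the Thr-TGT-3 sum is the single fragment given above. Without day 7 replicate 3, 8 sums passed, all higher, and without control replicate 1, 4 did.

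Day 3 after the laser gives a second time point, with values set beside those of day 7 because both comparisons share the same 3 controls. At day 3 against control 43 fragments (21.5%) passed. For the 32 nt fragment of Gly-CCC-2 the log2 fold changes were 1.81 (day 3, adjusted p = 0.00402) and 2.11 (day 7), and for that of Gly-GCC-1 they were 1.24 (day 3, adjusted p = 0.0195) and 1.71 (day 7). The 33 nt fragment of Gly-CCC-2 was at 1.66 (day 3, adjusted p = 0.00770, edgeR) and 2.36 (day 7). That of Gly-GCC-1 was at 0.99 (day 3, adjusted p = 0.0505, edgeR) and 1.81 (day 7), and that of Gly-CCC-3-M2 at 0.54 (day 3, adjusted p = 0.228, edgeR) and 1.95 (day 7). The log2 fold changes of Gly-GCC-2-M3 differed, with -0.04 at day 3 and 1.22 at day 7 for 32 nt, and -0.51 and 1.53 for 33 nt. The share of Gly-GCC-2-M3 counts that reach the base before the anticodon was 16.0%, 23.3% and 20.3% at day 3, against 15.9% in the highest control, so replicate 1 barely exceeded it. In Gly-CCC-2 that share was 31.6%, 43.7% and 44.7% at day 3, above all controls and overlapping the day 7 libraries.

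Tested directly, 69 fragments (34.5%) differed between day 7 and day 3 in edgeR, 46 of them higher at day 7. Day 3 libraries stood apart, with 62.1%, 58.3% and 56.0% of mapped reads in the listed fragments against 75.3% to 78.6% at day 7, and the part of this in the differences was not tested. Of the 8 fragments called at day 7, 4 were among them: tiRNA-1:33-Gly-GCC-2-M3 at 2.04 ± 0.32 (adjusted p = 0.000684), tRF-1:32-Gly-GCC-2-M3 at 1.26 ± 0.28 (adjusted p = 0.0041), tiRNA-1:33-Gly-CCC-3-M2 at 1.41 ± 0.34 (adjusted p = 0.00533) and tiRNA-1:34-Asp-GTC-2 at -1.71 ± 0.36 (adjusted p = 0.00324). For tRF-1:32-Gly-CCC-2 the difference was 0.30 ± 0.38 and for tRF-1:32-Gly-GCC-1 0.47 ± 0.36, neither past the threshold. Nor did tiRNA-1:33-Gly-CCC-2 pass, at 0.70 ± 0.41 (adjusted p = 0.182, edgeR), or tiRNA-1:33-Gly-GCC-1, at 0.82 ± 0.36 (adjusted p = 0.0770, edgeR). Glutamate fragments were at a share of 1.55% ± 0.354 of listed counts at day 3, and at 0.734% ± 0.153 at day 7 (SD, n = 3), with no overlap between their libraries.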

How the data were processed

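Small RNA of 9 mouse retinal pigment epithelium, choroid and sclera complexes was sequenced, and 6 libraries are compared here. Per the labels' protocols, RNA was deacylated, end-repaired and demethylated at m1A and m3C, then ligated, and PCR products of 134 to 160 bp were cut from a gel, which limits the lengths seen. The submitters' processing notes name FastQC, Bowtie, edgeR and mm10. Per the file headers, the authors deposited raw counts and CPM per fragment. Count divided by CPM gave each library's mapped total. Each fragment reached 20.1 CPM or more in some library, and 7 empty lines were skipped. The nuclear fragments printed come from the deposited sequences; tRNA gene counts are from RefSeq.

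Differential tests used edgeR 4.0.16 under R 4.3.3 on the deposited counts (mapped totals, TMM factors, filterByExpr, which kept 200 of 200; quasi-likelihood fit of all 9 libraries, Benjamini-Hochberg over 200 fragments, threshold 0.05). The 3 day 3 libraries enter the filter, the scaling factors and the spread. The common biological coefficient of variation was 34.9%. SE is the log2 fold change divided by the square root of F. For sums per parent the factors were recomputed, so a sum of a single fragment can differ from that fragment. No 2 libraries of a group agreed within counting noise (smallest chi-square per degree of freedom 20.6). Shares and lengths were compared by two-sided exact permutation over 20 assignments. On simulated data of 200 fragments, 40 changed, for day 7 against control, 90% of 4-fold and 26.5% of 2-fold changes were recovered and 5.28% of calls were false. The simulation drew fragments independently, with as many raised as lowered and no scaling differences beyond mapped totals. Its shares therefore need not hold for the calls made here.

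Named were the 10 fragments per direction with the smallest p, the 5 highest in the controls, the 3 smallest p and the highest control mean of each list, and the neighbouring lengths of called fragments. The members and lists were chosen with earlier results of these data known. Alternatives were DESeq2 1.42.0, limma-voom (limma 3.58.1), RLE (relative log expression) factors, other scalings, filters, thresholds, denominators and length windows, a fit of 2 groups, a replicate block and each library left out. The libraries were treated as unpaired, since the labels state no pairing by replicate number. After removal of group means 2 of 9 pairs with equal numbers correlated above 0.1, which in groups of 3 cannot decide whether they are paired. In the deposited alignments 74 fragments fit several tRNA genes, 41 of them with different anticodons, so these have no single source.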

Additional observations from a re-analysis of the deposited data

Results flagged for a closer look

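The following named fragments differed between day 7 and day 3 in edgeR's quasi-likelihood test (adjusted p under 0.05, Benjamini-Hochberg over 200 fragments), so that their differences from the shared controls were unequal at the 2 times. Groups of 3 are too small for a test of single outlying libraries. Values are log2 fold changes, day 7 minus day 3.

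Higher at day 7 were tiRNA-1:33-Gly-GCC-2-M3 by 2.04, tiRNA-1:34-Gly-TCC-1 by 1.84, tiRNA-1:33-Gly-CCC-3-M2 by 1.41, tRF-1:32-Gly-GCC-2-M3 by 1.26, tRF-1:16-Gly-GCC-2-M3 by 1.17 and tRF-1:31-Gly-GCC-2-M3 by 0.81. Lower at day 7 among glycine fragments were tRF-1:29-Gly-GCC-1 at -2.17, tRF-1:29-Gly-GCC-2-M3 at -1.26 and tRF-1:28-Gly-GCC-1 at -1.20. The others lower at day 7 were tRF-1:30-Pro-AGG-1-M3 at -1.78, tRF-1:30-Glu-TTC-3 at -1.75, tRF-1:30-Glu-CTC-2 at -1.72, tiRNA-1:34-Asp-GTC-2 at -1.71 and tRF-1:31-Glu-TTC-2 at -1.25. They are 14 of 36 fragments named by rank, abundance or as neighbours (38.9%), beside 34.5% of all 200 fragments, a share near the background. Without day 3 replicate 1, 8 of the named fragments passed in place of 14.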

How the results depend on the processing

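The 8 calls became 12 with DESeq2 (7 higher, 5 lower), 7 with limma-voom, 9 with RLE factors, 14 with mapped totals alone, 15 scaled to the listed counts, 9 with TMM factors without Gly-GCC fragments, 8 of 70 at a mean of at least 100 CPM and 8 from control and day 7 alone. Among named fragments alone these were 13 with mapped totals alone and 14 scaled to the listed counts. Leaving out a library gave 3 to 17 calls over all fragments and 3 to 13 among the named; without control replicates 1, 2 and 3 they were 17, 3 and 5, and the cause was not tested. Sums per parent, 0 called, became 1 with DESeq2, with mapped totals alone and scaled to the listed counts, and 0 to 8 without a library. Named fragments that differed between day 7 and day 3, 14, became 8 to 15 without a library.

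Whether replicate numbers pair the libraries could not be decided. With a replicate block 8 fragments and 2 parent sums, Gly-CCC-2 and the initiator methionine trailer, passed. tRF-1:28-Gly-GCC-1 turned to 0.10, tRF-1:30-Gly-CCC-2 to 0.027 and tRF-1:31-Gly-CCC-3-M2 to -0.0091 under the block.

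The other reversals were of uncalled log2 fold changes near 0. With mapped totals alone and scaled to the listed counts, tRF-1:31-Gly-GCC-2-M3 turned to -0.16 and -0.18, tRF-1:29-Gly-GCC-1 to -0.20 and -0.22, tRF-1:30-Gly-GCC-1 to -0.32 and -0.35, and tRF-1:31-Gly-CCC-3-M2 to -0.31 and -0.33. With TMM factors without Gly-GCC the same 4 were at -0.054, -0.10, -0.16 and -0.23, and tRF-1:16-Gly-GCC-2-M3 at -0.028. With both DESeq2 and RLE factors, tRF-1:29-Gly-GCC-1 was at -0.00035, tRF-1:30-Gly-GCC-1 at -0.077 and -0.078 and tRF-1:31-Gly-CCC-3-M2 at -0.14. With limma-voom tRF-1:28-Gly-GCC-1 was at 0.069, tRF-1:30-Gly-GCC-1 at -0.14 and tRF-1:31-Gly-CCC-3-M2 at -0.034. From control and day 7 alone tRF-1:30-Gly-GCC-1 was at -0.026 and tRF-1:31-Gly-CCC-3-M2 at -0.089. At a mean of at least 100 CPM tRF-1:28-Gly-GCC-1 was at 0.074 and tRF-1:30-Gly-CCC-2 at 0.0018.

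Leaving out each library gave -0.0079 to 0.43 for tRF-1:31-Gly-GCC-2-M3, -0.26 to 0.39 for tRF-1:28-Gly-GCC-1, -0.041 to 0.36 for tRF-1:29-Gly-GCC-1, -0.28 to 0.45 for tRF-1:30-Gly-GCC-1, -0.43 to 0.39 for tRF-1:30-Gly-CCC-2 and -0.13 to 0.21 for tRF-1:31-Gly-CCC-3-M2. For Gly-GCC-2-M3 it gave -0.022 to 0.48 at 16 nt, -0.24 to 0.032 at 22 nt, -0.43 to 0.033 at 28 nt and -0.46 to 0.058 at 29 nt. The day 7 minus control difference in the tRF-1 share was -0.014 to 0.0387 percentage points, and in the tRF-5a and tRF-5b share -0.0387 to 0.117. Shares of 3', mitochondrial and glutamate fragments and both mean lengths kept their sign in every alternative run. On simulated data 26.5% of 2-fold changes were recovered, so changes of that size can be missed at this depth and spread.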
